A study of Rattus norvegicus with 16 samples.

Results

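The genes described here are Smc3, Plk1, Rb1 and Mcm6, which act in chromosome cohesion, mitosis, entry into the cell cycle and DNA replication. They are 4 of the 1096 genes that had a probe on the arrays, with 1 probe each, taken by gene symbol (the platform table lists Smc3 under its older name Cspg6 as well). The set was chosen by its measured differences between denervated and control muscle in these same arrays, so those differences are given as a description, without a test. The tissue was the extensor digitorum longus (EDL), a leg muscle of fast fibres, taken from 6-month-old Brown-Norway rats. There were 8 arrays from control, innervated muscle and 8 arrays from muscle that had been denervated for 2 months. Rats are numbered 1 to 8 in both groups, and each array was taken as 1 rat; the labels leave unsaid whether equal numbers mean equal animals and how the nerve supply was removed. Whole muscle was used, so fewer cells of a type and less RNA per cell cannot be told apart. No label says that the rats of a group were processed separately, and the spread between arrays may therefore hold technical as well as animal variation.

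Smc3 is a core subunit of cohesin, the ring-shaped complex that holds sister chromatids together after replication and also shapes chromatin loops in cells that do not divide. The same protein was also described outside the cell as the proteoglycan bamacan, which is the origin of the name Cspg6. Mcm6 is a subunit of the MCM helicase, which unwinds DNA at replication origins and forks. Rb1 encodes the retinoblastoma protein, which holds E2F transcription factors inactive until cyclin-dependent kinases phosphorylate it. Plk1 is a kinase that drives mitotic entry, spindle assembly and the release of cohesin from chromosome arms. Muscle fibres are post-mitotic, and in adult muscle the cells able to divide include satellite cells, fibroblasts and cells of the blood and vessels. Rb1 is known to be needed for muscle cells to leave the cell cycle as they differentiate.

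Genes of the replication and mitotic programmes are commonly read through E2F and NF-Y sites near their start, so the stretch upstream of each gene is shown for the reader to set beside the expression values. The 4 genes were all found in a RefSeq promoter table of assembly GRCr8, and the 250 bases before each annotated start are printed 5′ to 3′ on the strand of the gene. Capitals mark matches to the E2F words TTGGCGC and TTCCCGC and to the NF-Y word CCAAT, searched on both strands, so that a CCAAT on the opposite strand reads ATTGG. The CHR word TTTGAA was searched too and was found in none of the 4 windows. The windows lie at chr1:262606841-262607090 on the plus strand for Smc3, chr1:186147408-186147657 on the plus strand for Plk1, chr15:54911858-54912107 on the minus strand for Rb1 and chr13:42404353-42404602 on the minus strand for Mcm6.
Smc3: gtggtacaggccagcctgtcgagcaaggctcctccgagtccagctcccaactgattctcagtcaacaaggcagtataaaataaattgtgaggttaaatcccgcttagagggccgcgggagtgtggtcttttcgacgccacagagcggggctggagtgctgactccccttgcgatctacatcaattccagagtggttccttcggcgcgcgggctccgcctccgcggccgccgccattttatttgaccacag
Plk1: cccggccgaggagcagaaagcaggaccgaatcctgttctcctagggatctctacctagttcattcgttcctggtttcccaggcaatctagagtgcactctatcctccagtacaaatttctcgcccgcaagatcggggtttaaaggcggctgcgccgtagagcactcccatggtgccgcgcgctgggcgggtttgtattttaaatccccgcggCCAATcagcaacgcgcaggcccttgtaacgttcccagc
Rb1: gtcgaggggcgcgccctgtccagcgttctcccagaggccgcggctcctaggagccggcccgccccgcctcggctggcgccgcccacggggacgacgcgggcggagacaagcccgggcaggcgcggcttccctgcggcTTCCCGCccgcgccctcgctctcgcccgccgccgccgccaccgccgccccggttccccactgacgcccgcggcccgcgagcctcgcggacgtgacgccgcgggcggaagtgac
Mcm6: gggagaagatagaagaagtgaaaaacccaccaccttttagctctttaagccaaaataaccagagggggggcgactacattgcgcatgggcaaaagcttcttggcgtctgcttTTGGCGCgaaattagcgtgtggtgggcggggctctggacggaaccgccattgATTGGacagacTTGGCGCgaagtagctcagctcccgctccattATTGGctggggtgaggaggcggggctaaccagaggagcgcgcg
The Mcm6 window held 4 matches. Its E2F word TTGGCGC stood 138 to 132 and 75 to 69 bases before the start, and its CCAAT words, on the opposite strand, stood 86 to 82 and 43 to 39 bases before it. The Plk1 window held 1 CCAAT, 38 to 34 bases before the start, and the Rb1 window held 1 TTCCCGC, 113 to 107 bases before it. None of these words was found in the Smc3 window. Over 33469 promoter windows of the same length, 5.0% held an E2F word, 34.0% a CCAAT and 16.2% the CHR word. The GC content was 57.6% for Smc3, 57.2% for Plk1, 81.2% for Rb1 and 56.4% for Mcm6, against a median of 51.2% over all windows. The matches are matches of letters and were not tested for binding.

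Values are a score on a log scale whose base is not given in the sources used here, so every difference is in log units and none is turned into a fold change. The lowest value of each array recurs on 22 to 206 probes and is called its floor. A value at the floor is taken here as an upper bound, although the origin of the floors is not given in the sources used. Floors ranged from 2.51 to 6.69. The mean over all probes lay between 8.19 and 8.31 on 15 arrays and was 6.63 on the array of control rat 6, which therefore stands apart. For this reason each member is also given relative to the median of its own array. Over the 1176 probes tested, the median difference between denervated and control arrays was 0.22 as deposited and 0.01 after this centring. Arrays of rats 1 to 4 and of rats 5 to 8 also stood apart from each other: deviations from the group mean over all probes had a median correlation of 0.12 between arrays of the same 4 rats and of -0.11 between arrays of different 4 rats. This split was made after the data were seen, so these correlations only describe it. Subtracting a group mean also lowers the correlations between arrays of that group. Differences within each set are given for the 4 genes, and for other genes where the sets gave unlike values. For the other genes they are on deposited values, without centring. As deposited, the median difference over all probes was -0.03 within rats 1 to 4 and 0.55 within rats 5 to 8, where control rat 6 belongs. Set differences of the other genes are to be read beside those medians. Differences between the sets were not tested. The labels do not say what the sets share.

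Smc3 was higher on every denervated array than on any control array. Control values ran from 5.74 through a median of 6.73 to 8.09, and denervated values from 8.27 through a median of 9.32 to 10.02. The control arrays of rats 3 and 7 were at their floor for Smc3, so those values are taken as upper bounds, and no denervated array was at its floor. The highest control value was that of rat 2 and the lowest denervated value that of rat 8, 0.18 apart. Means were 6.81 ± 0.73 in control and 9.21 ± 0.60 in denervated muscle (SD, n = 8 per group), a difference of 2.40 with a limma standard error of 0.43. Smc3 had the 10th largest rise of 1176 probes. Groups did not overlap for 1 of the 4 genes, Smc3, and for 1.28% of all probes; the genes were chosen with this contrast known, so nothing is read from that count.

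The rise of Smc3 was similar in size under each scaling. Relative to the array median, control values ran from -2.77 to -0.03 and denervated values from -0.21 to 1.96, with a difference of 2.19 (SE 0.42). On this scale the groups met: the denervated arrays of rats 7 and 8 fell below the highest control values, and 6 of 8 denervated arrays lay above all control arrays. The difference was 2.40 without the low array of control rat 6, and 2.20 when all values were raised to the highest floor of any array. Rats 1 to 4 gave a difference of 2.48 and rats 5 to 8 one of 2.32, and after centring 2.56 and 1.82.

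Plk1 was higher on most denervated arrays, with 1 exception. Control values ran from 6.57 through a median of 7.67 to 8.21, and denervated values from 6.74 through a median of 8.57 to 9.53. The denervated array of rat 5, at 6.74, lay far below the other 7, whose lowest value was 8.05, and 6 of 8 denervated arrays lay above all control arrays. Means were 7.59 ± 0.55 and 8.50 ± 0.86 (SD, n = 8 per group), a difference of 0.92 (SE 0.43). After centring the difference was 0.71 (SE 0.40), and denervated rat 5, at -1.80, was the lowest of all 16 arrays; on deposited values control rat 6, at 6.57, was lower. No array was at its floor for Plk1. The difference was 1.17 without denervated rat 5 and 0.77 without denervated rat 1 or without control rat 6. Rats 1 to 4 gave 1.21 and rats 5 to 8 gave 0.62, and after centring 1.29 and 0.12.

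The small difference in Rb1 rested on 1 control array. Control values ran from 5.37 through a median of 8.82 to 9.84, and denervated values from 8.47 through a median of 8.86 to 9.61. The lowest control value was that of rat 6, the array with the lowest mean over all probes, and the next was 7.95. The 2 medians were thus close, all denervated values lay inside the control range, and the control arrays were more spread. Means were 8.55 ± 1.45 and 9.01 ± 0.41 (SD, n = 8 per group), a difference of 0.46 (SE 0.44). Without control rat 6 the control mean was 9.0 ± 0.73 (SD) and the difference 0.01. Centring did not lift that array to the others, since Rb1 was still at -1.62 against its own median where the next control value was -0.56. The centred difference was 0.25 (SE 0.40) with rat 6 and -0.04 without it, and the centred medians, 0.71 in control and 0.56 in denervated muscle, had the opposite order to the centred means. Within the sets, the Rb1 difference was -0.13 for rats 1 to 4 and 1.06 for rats 5 to 8, where control rat 6 belongs. Quantile normalisation gave 0.13, and a fit with array weights gave 0.01. The direction for Rb1 is not settled by these arrays.

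Mcm6 was lower on average in denervated muscle, by less than the spread between rats. Control values ran from 6.77 through a median of 7.76 to 9.41, and denervated values from 6.32 through a median of 7.46 to 8.49. The groups overlapped over most of their range, and 2 denervated arrays, those of rats 1 and 2, lay below all control arrays. Means were 7.83 ± 0.87 and 7.40 ± 0.78 (SD, n = 8 per group), a difference of -0.43 (SE 0.48), and no array was at its floor. After centring the difference was -0.63 (SE 0.41), and 1 of 8 denervated arrays lay above the control median. Quantile normalisation gave -0.77. The deposited difference shrank to -0.20 without control rat 7, which had the highest value, and to -0.27 without denervated rat 2.

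**Figure D1:**
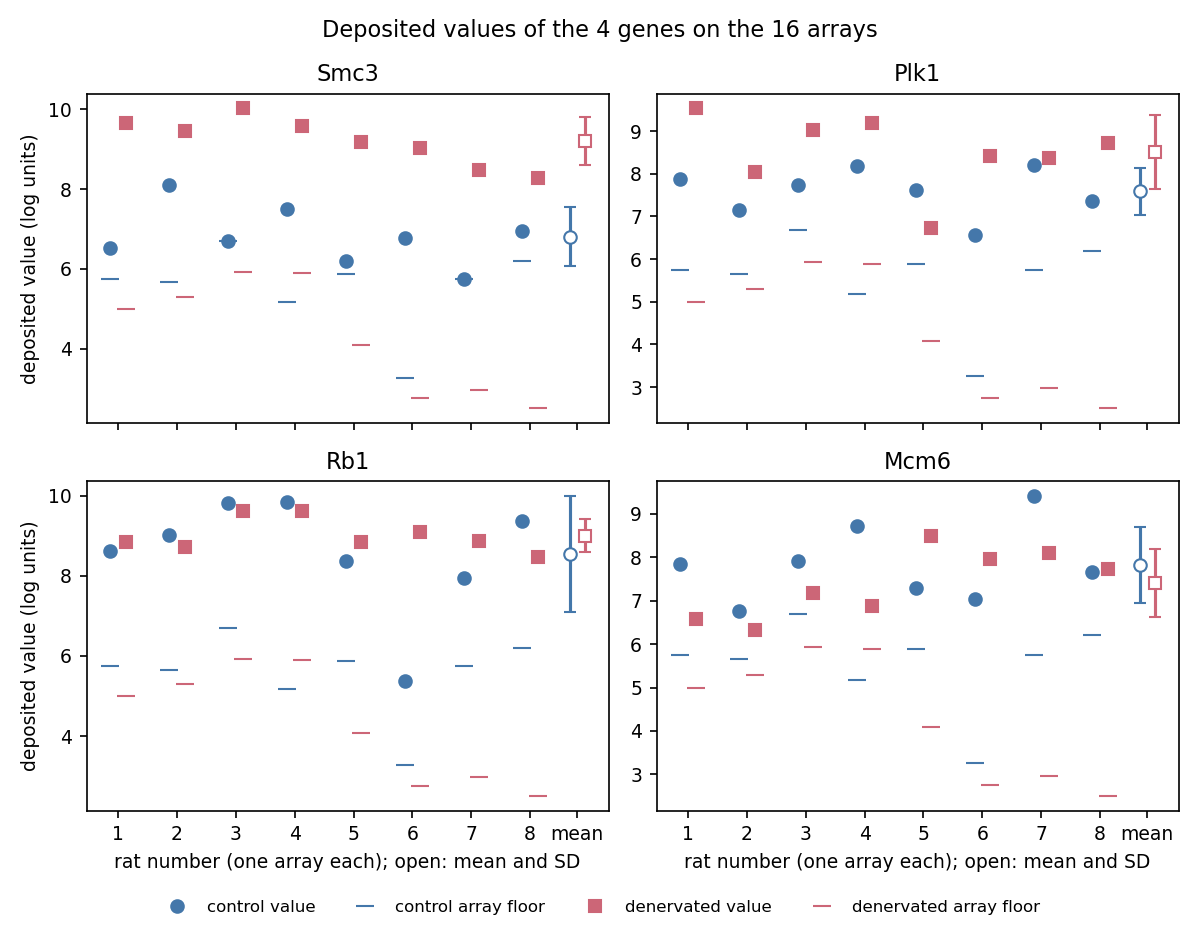
Deposited values of Smc3, Plk1, Rb1 and Mcm6 in log units (vertical axis) by rat number (horizontal axis), with circles for control and squares for denervated arrays, short lines for each array's floor, and open symbols with bars for the mean and SD of 8 arrays. Smc3 squares start at 8.27, above the highest circle at 8.09, while the Rb1 circle of rat 6 sits alone at 5.37.

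**Figure D2:**
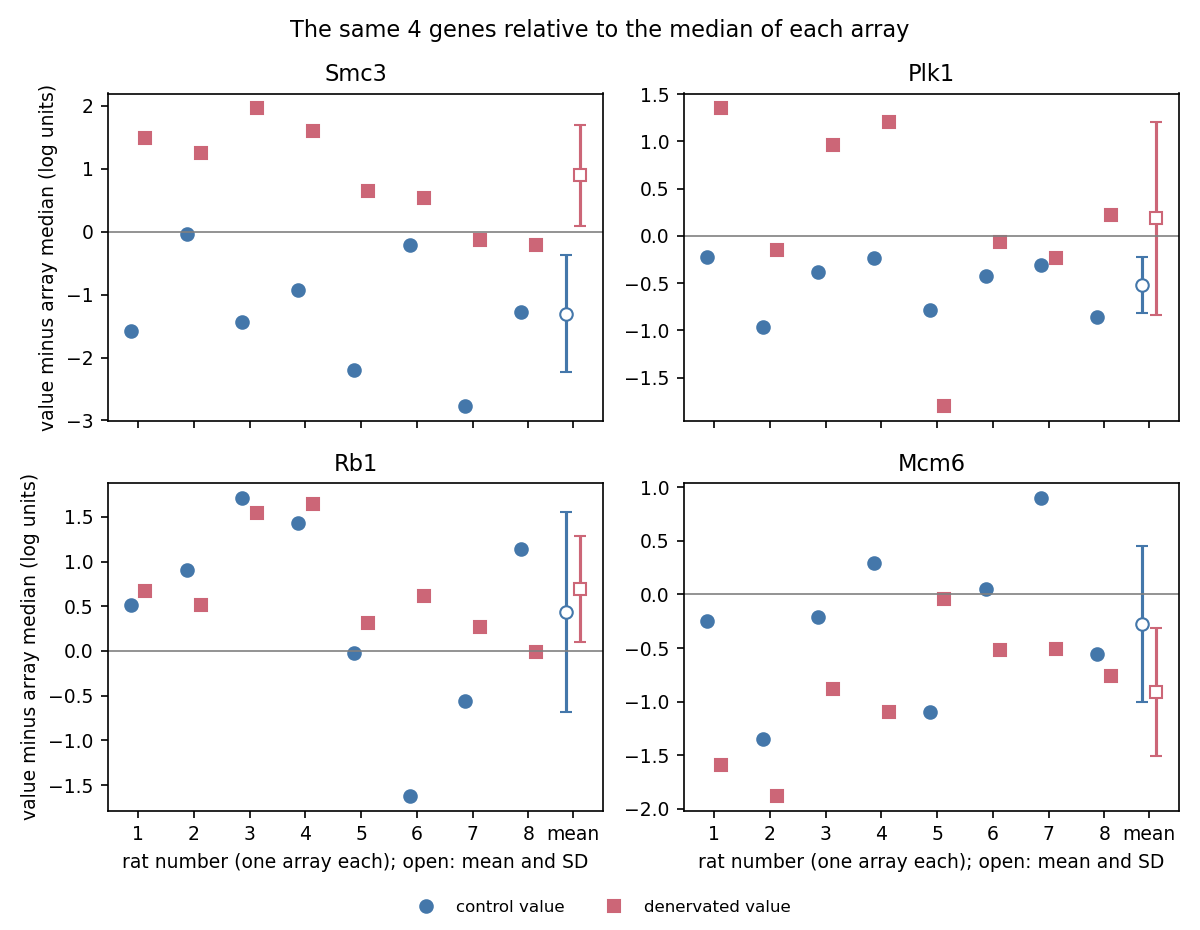
The same 4 genes as the value minus the median of the array, in log units, by rat number, with open symbols and bars for the mean and SD of 8 arrays. The Smc3 groups meet here, between -0.21 and -0.03, and the Plk1 square of rat 5 lies lowest at -1.80.

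In denervated muscle the sets of rats did not overlap for Smc3 and Mcm6. Denervated Smc3 values were 9.45 to 10.02 in rats 1 to 4 and 8.27 to 9.19 in rats 5 to 8. Denervated Mcm6 values went the other way, with 6.32 to 7.18 in rats 1 to 4 and 7.73 to 8.49 in rats 5 to 8. Both separations held after centring, and the sets of Plk1 and Rb1 overlapped. Such a separation was common on these arrays: the sets did not overlap for 18.9% of all probes among denervated and 13.5% among control arrays, where none of the 4 genes was separated. The Mcm6 difference between denervated and control muscle came to -1.07 for rats 1 to 4 and 0.22 for rats 5 to 8. After centring it was -0.99 and -0.28, so that the direction in rats 5 to 8 depended on the scaling.

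**Figure D3:**
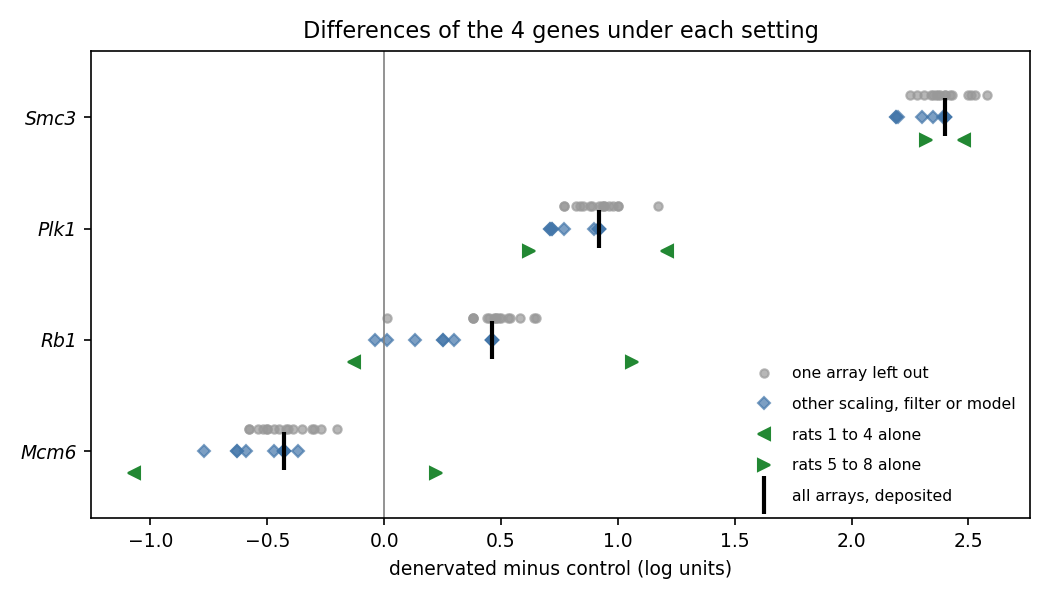
Difference between denervated and control means in log units (horizontal axis) for each of the 4 genes: black bars show all arrays as deposited, circles 1 array left out, diamonds another scaling, filter or model, and triangles rats 1 to 4 (pointing left) or rats 5 to 8 (pointing right) alone. Smc3 stays between 2.19 and 2.58, Rb1 reaches 0.01 when control rat 6 is left out, and Mcm6 lies at -1.07 in rats 1 to 4 and at 0.22 in rats 5 to 8.

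Set among all probes, the 4 genes ranged from near the top of the differences to the lower part. The deposited difference was larger than that of 99.1% of probes for Smc3, 86.7% for Plk1, 63.8% for Rb1 and 16.1% for Mcm6. The spread between rats, pooled over both groups, was 0.67 for Smc3, 0.72 for Plk1, 1.07 for Rb1 and 0.83 for Mcm6, against a median of 0.92 log units over all probes. After centring it was 0.87, 0.75, 0.90 and 0.67, against a median of 0.85, so Smc3 lay below the median probe on deposited values and near it after centring.

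**Figure D4:**
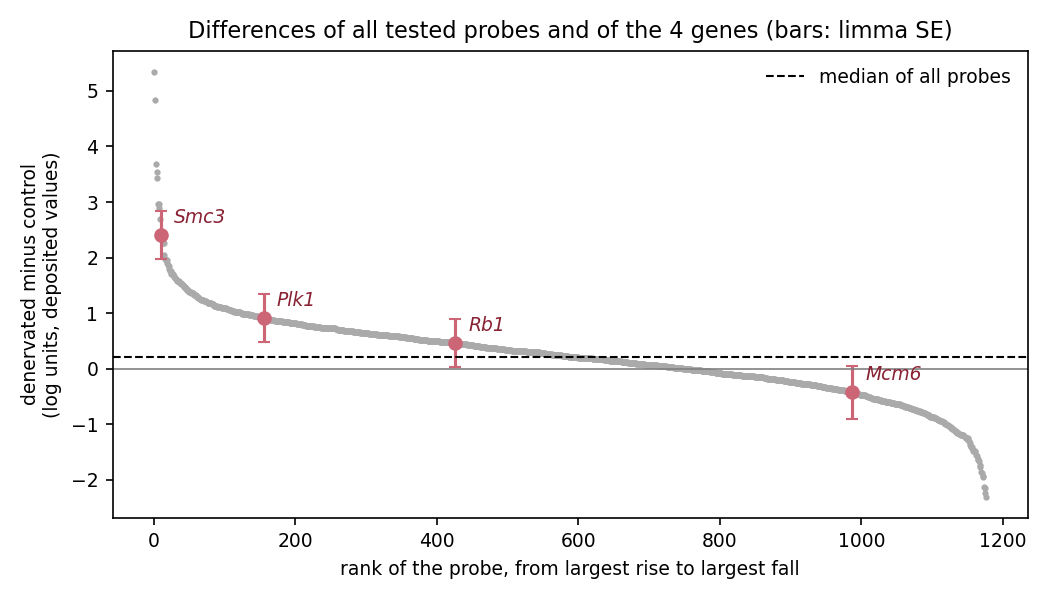
Differences between denervated and control means in log units (vertical axis) for 1176 probes ranked from the largest rise to the largest fall (horizontal axis), with the 4 genes in colour, bars for limma's standard error and a dashed line at the median of all probes, 0.22. Smc3 ranks 10, Plk1 156, Rb1 426 and Mcm6 987.

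Whether the 4 genes varied together between rats of the same group was examined by correlation of centred values over 8 arrays, within control and within denervated muscle, which does not use the difference between groups. This gave 12 relations, and none passed an adjusted p under 0.05. In denervated muscle Smc3 and Rb1 had a Pearson r of 0.84 (exact permutation p = 0.00903, adjusted p = 0.066) and a Spearman rho of 0.90 (exact permutation p = 0.00456, adjusted p = 0.0547). Without the 2 arrays farthest from the Smc3 median, r was 0.77. On deposited values r was 0.67 (exact permutation p = 0.0678, adjusted p = 0.298). In control muscle Plk1 and Mcm6 had r = 0.82 (exact permutation p = 0.011, adjusted p = 0.066) and rho = 0.69 (exact permutation p = 0.0694, adjusted p = 0.289), with r = 0.74 without the 2 farthest arrays. In denervated muscle the same genes had r = -0.61 (exact permutation p = 0.107, adjusted p = 0.366) and r = -0.05 without the 2 farthest arrays, so that value rested on those arrays. The permutations took the 8 arrays of a group as exchangeable, although denervated Smc3 was separated by the sets of rats. Medians of the denervated arrays, taken from both genes in centring, also differed by set. They were 7.97 to 8.20 in rats 1 to 4 and 8.48 to 8.60 in rats 5 to 8. The part of the sets and of the shared centring in these correlations was not tested. Each set of rats holds 4 arrays of a group, too few for a correlation within it.

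Among the other 1095 genes, those whose deviations from the group mean were most like each member over the 16 centred arrays were listed, 3 per member. They were Vom2r52 (r = 0.84), Nab1 (0.84) and Sema6b (0.81) for Smc3, and Reg3b (0.77), Col12a1 (0.76) and Ivd (0.74) for Plk1. For Rb1 they were Lman1 (0.88), Rest (0.84) and Gucy2g (0.80), and for Mcm6 Gata4 (0.79), Unc13c (0.77) and Vom2r32 (0.75). The likeness to Smc3 was seen in both groups, with r of 0.73 to 0.81 in control and 0.92 to 0.94 in denervated muscle. That of Ivd to Plk1 was seen in denervated muscle (0.91) and not in control muscle (-0.07). These values are the highest of many, they share the scaling of the arrays and the sets of rats, and they are given as a description.

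The other genes of these pathways were sparsely covered. Of 33 cohesin and SMC genes and 62 DNA replication genes listed, Smc3 and Mcm6 were the only ones with a probe, so no other cohesin subunit, MCM subunit or replication factor of those lists could be set beside them. The mitosis list had 3 of 63 genes measured, Plk1, Foxm1 and Stmn1, and the G1 and Rb network list 4 of 55, Rb1, E2f5, Rbbp7 and Rbbp9. Lists for p53 and growth arrest (22 genes) and DNA repair (36 genes) had none measured. By limma with Benjamini-Hochberg adjustment over all probes, 0 of the 5 genes other than the members passed an adjusted p under 0.05, beside 6.29% of all probes. An unadjusted p under 0.05 was seen for 1 of the 5, beside 17.9% of all probes. No other tool or scaling that used all 16 arrays called any of the 5, apart from a fit with array weights and one with rat number as a block, each of which called Foxm1.

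Foxm1, the transcription factor that drives many mitotic genes including Plk1, had the largest deposited difference of the 5, most of it between floor values; with a common floor Rbbp7 differed by more. Its control values ran from 5.18 through a median of 6.44 to 8.45 and its denervated values from 2.75 through 4.87 to 6.86, with 5 of 8 arrays at their floor in each group. The difference was -1.77 (SE 0.64, limma adjusted p = 0.0910). It was -0.06 for rats 1 to 4 (limma adjusted p = 0.977) and -3.47 for rats 5 to 8 (limma adjusted p = 0.0206), where the denervated arrays had floors of 2.51 to 4.08. With all values raised to a common floor it was -0.34 (limma adjusted p = 0.416) and after quantile normalisation -0.99 (limma adjusted p = 0.267). The deposited difference was one between values taken as upper bounds on most arrays. Rbbp9, a protein that binds the retinoblastoma protein, had a difference of -1.24 (SE 0.71, limma adjusted p = 0.349) with 5 control and 6 denervated arrays at their floor, and -0.35 with a common floor.

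The remaining 3 pathway genes were measured above the floor on every array, and their differences over all 16 arrays were under their standard errors or little above them. E2f5, an E2F family member that works mainly as a repressor with retinoblastoma relatives, had medians of 9.18 in control and 9.17 in denervated muscle and a difference in means of 0.08 (limma adjusted p = 0.941). That difference was -0.13 after centring. Rbbp7, a histone-binding protein found with the retinoblastoma protein, differed by 0.41 (limma adjusted p = 0.611). Stmn1, which destabilises microtubules and is regulated through the cell cycle, differed by -0.04 (limma adjusted p = 0.977) and had medians of 9.12 and 9.09. As deposited its sets went opposite ways, with -0.82 for rats 1 to 4 and 0.75 for rats 5 to 8 (limma adjusted p = 0.585 and 0.362). The median differences of all probes in the same sets were -0.03 and 0.55. Rbbp7 differed by -0.08 and 0.90 and E2f5 by -0.19 and 0.35 in the same sets.

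A further list of 23 genes for chromosomes, cell cycle and DNA maintenance was put together from the symbols on the array, and 22 had a value. None of the 22 passed an adjusted p under 0.05 in limma, beside 6.29% of all probes, and 2 had an unadjusted p under 0.05, beside 17.9% of all probes. These were Ruvbl1, an ATPase of chromatin remodelling complexes, at 0.94 (SE 0.35, limma adjusted p = 0.103), and Rgcc, a regulator of cell cycle progression, at 1.24 (SE 0.58, limma adjusted p = 0.234). The median difference of the 22 was 0.08, below the 0.22 of all probes, and 12 of the 22 were above 0, or 10 after centring. The meiotic chromosome proteins Sycp1, Sycp2 and Sycp3 differed by -0.13, -0.74 and -0.40. Timeless, which works at replication forks, differed by 0.81 (limma adjusted p = 0.432) and the centromere protein Cenpi by -1.19 (limma adjusted p = 0.340). Some arrays were at their floor: 3 control arrays for Rgcc, 2 control arrays for Timeless, and 3 control and 2 denervated arrays for Cenpi. With a common floor these genes differed by 0.62, 0.54 and -0.52.

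**Figure D5:**
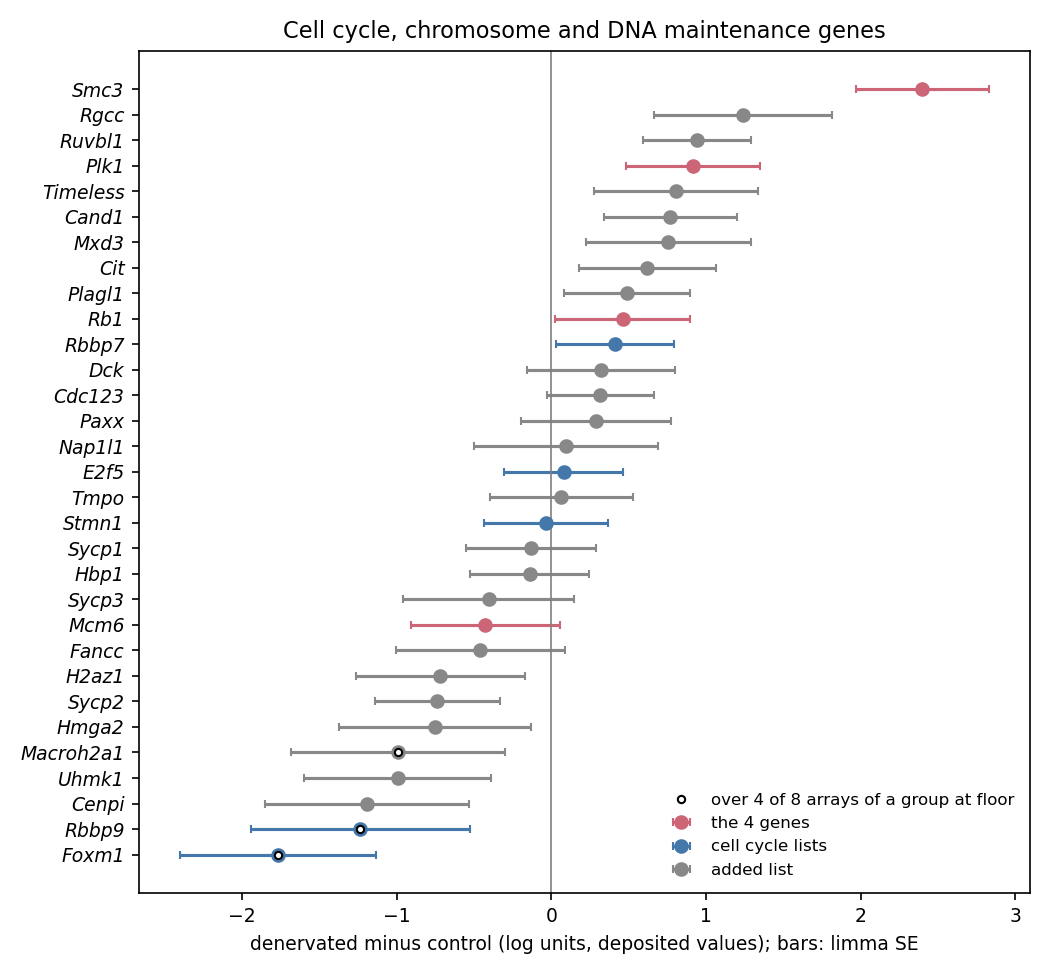
Difference between denervated and control means in log units (horizontal axis) for the 4 genes, the 5 other genes of the cell cycle lists and the 22 genes of the added list (vertical axis), with bars for limma's standard error and an open centre where over 4 of 8 arrays of a group were at their floor. Smc3 at 2.40 lies apart on the right, and Foxm1 at -1.77 is the lowest, with an open centre.

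Because the Smc3 protein was also described as a proteoglycan, the proteoglycan list was set beside it. Of 28 genes, 12 were measured, 11 without Smc3. Of these 11, 2 rose and 0 fell, beside 5.44% of all probes called higher. This list was also chosen with earlier results of these data known, so nothing is read from that count. Biglycan, Bgn, a small leucine-rich proteoglycan of the matrix, ran from 5.56 through a median of 8.71 to 9.18 in control and from 10.06 through 10.62 to 10.93 in denervated muscle, so its groups did not overlap. It rose by 2.30 (SE 0.39, limma adjusted p = 3.245e-05). Decorin, Dcn, which binds collagen fibrils, rose by 1.40 (limma adjusted p = 0.0318), a call lost after centring (adjusted p = 0.0782) and after quantile normalisation (adjusted p = 0.180). Dcn differed by 0.68 for rats 1 to 4 (limma adjusted p = 0.596) and by 2.13 for rats 5 to 8, and Bgn by 2.00 and 2.61. The median of the 11 was 0.19, near that of all probes, and 7 of the 11 were above 0, or 5 after centring. Among the large cartilage and brain proteoglycans Acan differed by -0.28, Bcan by -1.08 and Ncan by 0.13, with limma adjusted p of 0.858, 0.374 and 0.907. Bcan was at its floor on 5 control and 4 denervated arrays, and Acan on 2 and 1. With a common floor Bcan differed by -0.225 and Acan by -0.045. The deposited arrays measure the Smc3 transcript and do not tell which form of the protein was made.

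Markers of other cell types that EDL muscle could hold were set beside these values; most measured satellite cell and fibroblast markers rose, and most of those of macrophages and nerve did not pass the test. Over all probes 5.44% were called higher. The marker lists were chosen with earlier results of these data known, so the counts are a description and nothing is read from their shares. Satellite cell and myoblast markers had 5 of 13 genes measured and 4 higher: the myogenic factors Myog (1.85, limma adjusted p = 0.000379), Myod1 (1.33, limma adjusted p = 0.0450) and Myf6 (1.29, limma adjusted p = 0.0203), and the adhesion molecule Ncam1 (1.96, limma adjusted p = 0.000343). The remaining marker, Itga7, went the other way without passing the test, by -0.59 (limma adjusted p = 0.559). Its difference was -0.80 after centring and -0.82 after quantile normalisation. The count of markers called higher was 3 after centring and 2 after quantile normalisation. The mean value of the 5 per array ran from 7.82 to 9.48 in control and from 9.56 to 10.48 in denervated muscle. Within the sets, Myog rose in both, by 1.80 in rats 1 to 4 and 1.90 in rats 5 to 8, whereas Ncam1 differed by 1.01 and 2.92, Myf6 by 0.57 and 2.02 and Myod1 by 1.01 and 1.65, with limma adjusted p of 0.298, 0.585 and 0.143 in rats 1 to 4. Ncam1 and the myogenic factors are also made by denervated muscle fibres. Fibroblast markers had 4 of 15 measured and 3 higher, S100a4 (2.88, limma adjusted p = 5.06e-07), Bgn and Dcn, with array means of 7.53 to 10.0 in control and 10.47 to 11.38 in denervated muscle. Bgn and Dcn stand in the proteoglycan list as well.

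Macrophage and leukocyte markers had 4 of 20 measured and 1 higher, Mmp12 (1.16, limma adjusted p = 0.0368), with array means of 7.84 to 9.93 and 9.58 to 10.33. All 4 were above 0, also after centring, with a median difference of 1.05. An unadjusted limma p under 0.05 was seen for 3 of the 4, beside 17.9% of all probes. Cd48 differed by 1.24, C1qb by 0.95 and Cd8a by 0.34, with limma adjusted p of 0.0688, 0.138 and 0.674. Schwann cell and nerve markers had 8 of 15 measured and 1 higher, the neurofilament gene Nefm (1.38, limma adjusted p = 0.0318), with array means of 5.28 to 7.93 and 7.03 to 7.96. Neither call held after centring or quantile normalisation. Nefm differed by 2.61 for rats 1 to 4 and by 0.14 for rats 5 to 8 (limma adjusted p = 0.889). Adipocyte markers had 2 of 9 measured and 1 higher, Scd (2.97, limma adjusted p = 3.245e-05), with 5 of 8 control arrays at their floor, with array means of 4.97 to 7.83 and 6.52 to 9.22. None of the 9 endothelial markers was measured. Of 20 skeletal muscle markers 3 were measured: creatine kinase Ckm, at 13.01 ± 1.88 and 13.72 ± 0.71 (SD, n = 8 per group), the calcium channel gene Cacna1s, at 10.59 and 10.56 as deposited, and the myosin kinase gene Mylk2, which fell by 1.87 (limma adjusted p = 0.000418). After quantile normalisation Cacna1s differed as well, by -0.79 (limma adjusted p = 0.0023). Mylk2 differed by -2.67 for rats 1 to 4 and by -1.07 for rats 5 to 8 (limma adjusted p = 0.084). Creatine kinase and Cacna1s were above the floor on every array. Several defining markers, among them Pax7, Pdgfra and Ptprc, had no probe named here. The part of these cell types in the values of Smc3, Plk1, Rb1 and Mcm6 was not tested.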

How the data were processed

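Per the labels, total RNA was made into labelled cDNA, hybridised to Clontech Rat Atlas nylon membranes and read with a phosphorimager and Array Vision, and the authors normalised the signals by linear regression. They deposited a score on a log scale, as the values show; its base and any background correction are not given in these sources. The table held 1185 probes; 9 reference probes on another scale were left out, leaving 1176. The filter, a value over 0 on 8 or more arrays, kept all of them. The platform table gave 1106 probes 1 gene, 2 several and 68 none. Probes on such membranes may also bind transcripts of related genes.

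Groups of 8 and 8 arrays were compared on deposited values with limma 3.58.1 in R 4.3.3 (lmFit and trended eBayes, two-sided, Benjamini-Hochberg adjustment over all 1176 probes, threshold 0.05), which called 74 probes, 64 higher and 10 lower, with 211 at an unadjusted p under 0.05. The procedure was tested on simulated data with independent normal noise. Those data had no floors, no low array and no sets of rats, so the test does not cover these features. No 2 arrays were copies: the highest share of identical values in a pair was 0.085%. The number of arrays limits the precision, and the p-values measure the spread between arrays. The alternatives were an exact permutation test per probe, array weights, robust variance, a common floor, inclusion of the reference probes, centring, quantile normalisation, the brighter probes alone, no filter, rat number as a block and each array left out; those on the sets of rats, on centring without control rat 6 and on likeness without centring were added after the data were seen.

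The members and lists were chosen with earlier results of these data known. Named genes were the members, all measured genes of the 4 cell cycle lists, from each other list those called and the 2 of lowest adjusted p, and for each member the 3 genes most like it. Other proteoglycan genes, Cacna1s, Itga7 and the genes named from the added list were picked after their values were seen. The acetylcholine receptor genes are not reported here. Promoter windows came from a RefSeq table of GRCr8, matched by symbol. Figures were drawn with matplotlib 3.10.9.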

Additional observations from a re-analysis of the deposited data

Results flagged for a closer look

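In 56 groups of 8 arrays of the genes named here, 4 had a lowest array set far from the other 7. Chance flags about 1 group in 20 for normal values, so the count is near that share. The groups share arrays and are not independent. In control muscle Rb1 was 5.37 on the array of rat 6, and the next array was at 7.95. On the same array Bgn was 5.56 with the next control array at 7.78. That array had the lowest mean over all probes, 6.63. In denervated muscle E2f5 was 7.31 in rat 2 with the next array at 8.76, and Scd was 7.12 in rat 3 with the next array at 9.20. The causes were not tested.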

How the results depend on the processing

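As deposited, 64 probes were called higher and 10 lower; the split was 35 and 15 after centring and 35 and 27 after quantile normalisation. The count of 74 called probes became 131 with the sets of rats as a block, 30 in rats 1 to 4 alone, 139 in rats 5 to 8 alone and 43 without control rat 6 after centring. Leaving out 1 array gave 43 to 98 calls, with 43 without denervated rat 1, 46 without denervated rat 6, and, among control rats, 45 without rat 7, 48 without rat 8 and 49 without rat 5. The exact permutation test per probe called 67.

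Rat number as a replicate block gave 113 calls, and 141 after centring. Deviations of same-numbered arrays correlated between 0.06 and 0.19, with a median of 0.17 and over 0.1 in 7 of 8 pairs. Of 8 control arrays, 2 correlated best with their own number. These values do not decide whether equal numbers mark pairs, and the main fit left the arrays unpaired. Under the block 1 of the 5 other cell cycle genes passed, Foxm1 (limma adjusted p = 0.0421), and again 1 after centring (0.0463).

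Foxm1 was likewise the 1 gene called with array weights (limma adjusted p = 0.0449), in rats 5 to 8 alone (-3.47, adjusted p = 0.0206, against -0.06 in rats 1 to 4) and without denervated rat 3; leaving out 1 array gave 0 to 1 calls. The small difference of E2f5 turned to -0.13 after centring, with or without the block, -0.19 after quantile normalisation, in rats 1 to 4 and without control rat 6 after centring, and -0.12 with array weights. It ranged from -0.14 to 0.32 with 1 array left out. Rats 1 to 4 gave -0.82 for Stmn1 and rats 5 to 8 gave 0.75; it ranged from -0.26 to 0.20 with 1 array left out. In rats 1 to 4 Rbbp7 was -0.08, the myelin gene Prx -0.41 and the lipid synthesis gene Acly -0.34. Acly was -0.13 after centring, with or without the block, -0.21 with array weights and -0.24 without control rat 6 after centring, and ranged from -0.19 to 0.31 with 1 array left out. The causes were not tested. Removing the filter left the probes tested as they were, and the brighter part of the probes held neither Smc3 nor Mcm6. Floors limit what can be said of genes with arrays at their floor, among them Foxm1, Rbbp9, Scd, Bcan, Cenpi, Rgcc and Acly.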
